A study of Drosophila melanogaster with 34 samples.

Results

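HDAC11 is 1 of 5 histone deacetylases whose binding was mapped by chromatin immunoprecipitation and sequencing (ChIP-seq) in embryos of Drosophila melanogaster. The peak lists labelled HDAC11 carry the numbers HDAC-494 and HDAC-495 and are compared here with the 8 lists of the other deacetylases, namely HDAC1 (HDAC-500 and HDAC-501), HDAC3 (HDAC-498 and HDAC-499), HDAC4a (HDAC-492 and HDAC-493) and HDAC6 (HDAC-496 and HDAC-497). The members were chosen by antibody label and by position on 6 chromosome arms (X, 4, 3R, 3L, 2R and 2L). They were 982 peaks of list HDAC-494 and 1506 of list HDAC-495, 2488 in all, out of 27889 in the 10 deacetylase lists and 48081 in the 18 lists of the series on these arms. All 10 lists came from embryos collected from 0 to 12 h after laying in cages of y; bw cn sp flies, without treatment, and all were set against 1 input library. Each list joins 2 numbered libraries per its title, so a list is a single observation with no replicate error of its own. The series also held 8 lists of CTCF, Caudal and EcR from other collections of embryos, later stages or S2 cells, a line derived from embryos. Per the titles, the EcR lists and the Caudal lists of later embryos, larvae and adult females came from flies with a GFP-tagged factor. These GFP lists thus differed from the deacetylase lists in genotype as well as in collection or stage, and the adult list was of females only. Whole embryos were used, so binding in few cells and weak binding in many cells cannot be told apart. The lists give no read counts, heights or p-values, so the depth behind a peak is unknown.

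Histone deacetylases remove acetyl groups from lysines of histones and other proteins, and loss of histone acetylation generally accompanies lower transcription. HDAC1 (also called Rpd3) and HDAC3 are class I enzymes that act in corepressor complexes in the nucleus. HDAC4a, which the gene table pairs with the symbol HDAC4, belongs to class IIa, whose members move between cytoplasm and nucleus and bind transcription factors. HDAC6 is a class IIb enzyme, best known in mammals for deacetylating tubulin in the cytoplasm. HDAC11 is the single class IV enzyme, and in human cells it has been described as removing long fatty acyl groups from lysines.

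The HDAC11 lists resembled each other less than each resembled a list of another deacetylase, which bears on every value below. The measure was the number of base pairs shared by a pair of lists, divided by the number that their coverages of the arms would give if multiplied. List HDAC-494 stood closest to HDAC4a list HDAC-492, with a ratio of 5.77, and list HDAC-495 closest to HDAC4a list HDAC-493, with 5.56. The ratio between lists HDAC-494 and HDAC-495 themselves was 3.61, which ranked 6 of 9 for list HDAC-494 and 3 of 9 for list HDAC-495, and 21 among the 45 pairs of deacetylase lists. In 3 of the 10 lists, both of HDAC3 and HDAC1 list HDAC-501, the closest list was the one with the same label. No interval of an HDAC11 list was identical to one in another deacetylase list. Values are therefore given for each HDAC11 list and not only as a mean. Nothing in the labels states how lists HDAC-494 and HDAC-495 differ, and the specificity of the antibodies was not tested.

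The HDAC11 lists were the shortest of the 10 and covered the least of the genome. They held 982 and 1506 peaks, against 2552 to 4105 in the other 8 lists (median 2977), and the ranges did not overlap. On average this was a 0.389-fold difference (log2 difference -1.36 of HDAC11 minus the other lists). Among all 45 choices of 2 lists out of 10, no other choice lay as far apart (two-sided exact permutation test, p = 0.022, the smallest that this design can give). With Benjamini-Hochberg adjustment over the 7 measures tested, the exact permutation p became 0.078 and did not pass 0.05. After that adjustment the smallest p of this design passes 0.05 only if several of the 7 measures come near it together. Not passing is therefore weak evidence that the lists are alike, here and below. List HDAC-494 covered 3.60% of the arms and list HDAC-495 covered 3.71%, against 4.87% to 15.8% in the other lists.

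The median widths of the HDAC11 peaks lay among those of the other lists. The median width was 3165.5 bp in list HDAC-494 and 2358.5 bp in list HDAC-495, against 1680 to 5825.5 bp in the others. In that order, 3 lists (both of HDAC4a and HDAC6 list HDAC-496) lay below both HDAC11 lists and 2 (both of HDAC3) above them. The fold was 0.934 (log2 difference -0.10, two-sided exact permutation test, p = 0.87, adjusted p = 0.87). With the 982 widest peaks of every list, which keeps the whole of list HDAC-494, the medians were 3165.5 and 3155 bp, against 3100 to 10653 bp in the others. The log2 difference was then -0.82 (two-sided exact permutation test, p = 0.089, adjusted p = 0.12). The middle 50% of widths ran from 2162 to 5309.5 bp in list HDAC-494 and from 1636 to 3628 bp in list HDAC-495. Peaks over 5 kb made up 27.6% of list HDAC-494 and 11.4% of list HDAC-495, against 4.66% (HDAC4a list HDAC-492) to 58.8% (HDAC3 list HDAC-499) in the others. Peaks over 10 kb numbered 71 in list HDAC-494 and 26 in list HDAC-495.

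**Figure D1:**
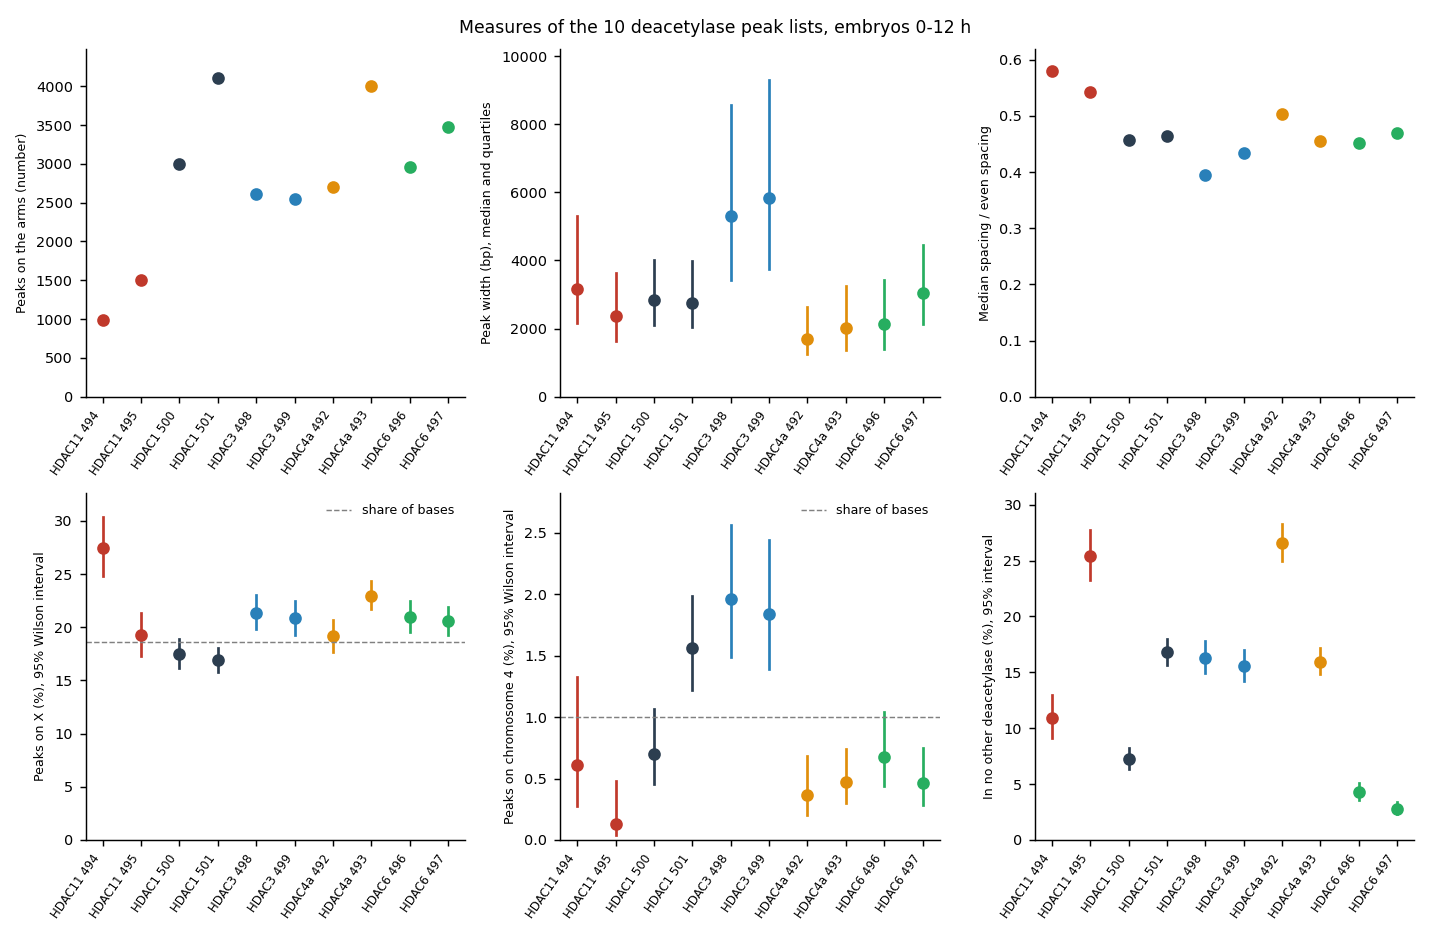
Each panel plots 1 measure for the 10 deacetylase lists, with HDAC11 at the left: number of peaks, median width in bp with quartiles, median spacing over even spacing, and the percent of peaks on X, on chromosome 4 and in no other deacetylase, with 95% Wilson intervals and, for X and 4, the share of bases as a dashed line. The HDAC11 points are the lowest for peak number (982 and 1506) and the highest for spacing (0.580 and 0.543), list HDAC-494 is the highest on X (27.5%) and list HDAC-495 the lowest on chromosome 4 (0.133%).

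Allowing for their number, the median spacing of HDAC11 peaks was wider than in any list of the other deacetylases. The median distance between the midpoints of neighbouring peaks was 70917.8 bp in list HDAC-494 and 43335.5 bp in list HDAC-495, against 13607 to 22356.8 bp in the others. Divided by the even spacing, which is the length of the arms over the number of peaks, these medians came to 0.580 and 0.543, against 0.394 to 0.503 in the other lists. The ranges did not overlap, and HDAC11 stood 1.24-fold higher (log2 difference 0.31). No other of the 45 choices of lists was as far apart (two-sided exact permutation test, p = 0.022, adjusted p = 0.078). At the 10th percentile of distances the ratio was 0.0861 in list HDAC-494 and 0.0788 in list HDAC-495, below the 0.0892 to 0.147 of the others. The lower ratio does not mean closer neighbours in bp, because the even spacing is longer in short lists. In bp the lower quartile of distances was 25912 in list HDAC-494 and 15127.9 in list HDAC-495, against 5794.5 to 9976.75 in the others. At the 90th percentile the ratio was 2.34 and 2.50, within the 2.33 to 2.67 of the others. Gaps under 5 kb between neighbours made up 8.91% of list HDAC-494 and 14.3% of list HDAC-495, against 20.4% to 38.4%, and gaps over 100 kb made up 38.6% and 24.2%, against 6.03% to 12.3%. These 2 shares were not scaled by the number of peaks.

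**Figure D2:**
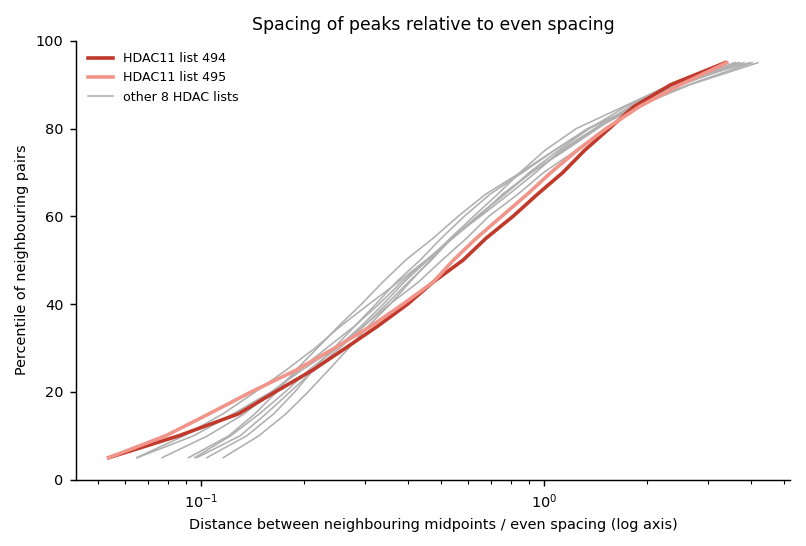
The distance between neighbouring midpoints divided by even spacing (log axis) is plotted against its percentile within each list, in dark red for list HDAC-494, light red for list HDAC-495 and grey for the other 8 lists. The HDAC11 curves lie to the right of the grey ones around the middle, at medians of 0.580 and 0.543 against 0.394 to 0.503, and meet or cross them at both ends.

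The densest runs and the longest gaps differed between the HDAC11 lists. The shortest run of 5 neighbouring peaks in list HDAC-494 spanned 41566 bp at X 17576184 to 17617749, where list HDAC-495 had 0 peaks and HDAC1 list HDAC-501 had 7. Others lay at 3L 1390120 to 1450274, where HDAC4a list HDAC-492 had 6 peaks, and at X 14914564 to 14976565, where both HDAC3 lists had 5. In list HDAC-495 the shortest run spanned 21417 bp at 2R 4754325 to 4775741, the next 22973 bp at X 18737238 to 18760210 and the third 26925 bp at 2R 3178082 to 3205006. In the run on X list HDAC-494 had 1 peak and the HDAC1 lists had 1 and 3. In both runs on 2R list HDAC-494 and the HDAC1 lists had 0, and HDAC4a list HDAC-493 had 2. The longest stretch without a peak was 988722 bp on 3R (23464955 to 24453676) for list HDAC-494, in which list HDAC-495 had 6 peaks and the other lists 9 to 20. For list HDAC-495 it was 788288 bp on X (20394673 to 21182960), in which list HDAC-494 had 6 peaks and the other lists 6 to 22.

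The X chromosome carried a high share of the peaks of list HDAC-494 but not of list HDAC-495. Of the 982 peaks of list HDAC-494, 270 (27.5%, 95% Wilson interval 24.8% to 30.4%) lay on X, and of the 1506 of list HDAC-495, 290 (19.3%, 17.3% to 21.3%), against 16.9% to 23.0% in the other lists and 18.7% of the bases. The mean difference of 3.34 percentage points did not pass the test (two-sided exact permutation test, p = 0.18, adjusted p = 0.25). Without list HDAC-494 it was -0.776 points, so its direction rested on that list. With the 982 widest peaks of every list, X held 27.5% in list HDAC-494 and 20.6% in list HDAC-495, against 11.0% to 23.1% in the others (median 14.7%). The difference was then 8.81 points (two-sided exact permutation test, p = 0.044, adjusted p = 0.078). That setting keeps every peak of list HDAC-494 but only the widest of the longer lists. In the lists of the other deacetylases except HDAC4a list HDAC-493, the X share was lower under this setting than over all peaks. In HDAC4a list HDAC-493 it was 23.1% against 23.0%. The lists of the other deacetylases differed within a label by 0.383 to 3.83 points, and the HDAC11 lists by 8.24. In peaks per Mb, list HDAC-494 had 12.1 on X and 7.29 on the other arms, a ratio of 1.65. That of list HDAC-495 was 1.04, and those of the others lay between 0.886 (HDAC1 list HDAC-501) and 1.30 (HDAC4a list HDAC-493).

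The X share of list HDAC-494 was highest among its narrow peaks. The narrowest 25%, 246 peaks of 912 to 2161 bp, had 99 on X (40.2%, interval 34.3% to 46.5%), and the widest 25%, 245 peaks of 5327 to 24669 bp, had 51 (20.8%, 16.2% to 26.3%). Among the narrowest 25% of list HDAC-495 the share was 16.4% (13.0% to 20.5%), against 23.9% to 31.2% in the other lists. The highest of these, 31.2% (27.8% to 34.8%), was that of HDAC4a list HDAC-492, the list closest to list HDAC-494. Among the widest 25% the lists of the other deacetylases had 10.9% to 23.2% on X, each below its own narrowest 25%. A fall with width was thus not particular to list HDAC-494, whereas list HDAC-495 had 20.2% among its widest. Counted in base pairs, X held 22.8% of list HDAC-494 and 20.3% of list HDAC-495, against 14.3% to 23.4% of the others. Peaks of list HDAC-494 that list HDAC-495 lacked lay on X in 29.2% of cases (26.2% to 32.5%), and those found in both in 20.2% (15.1% to 26.5%).

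**Figure D3:**
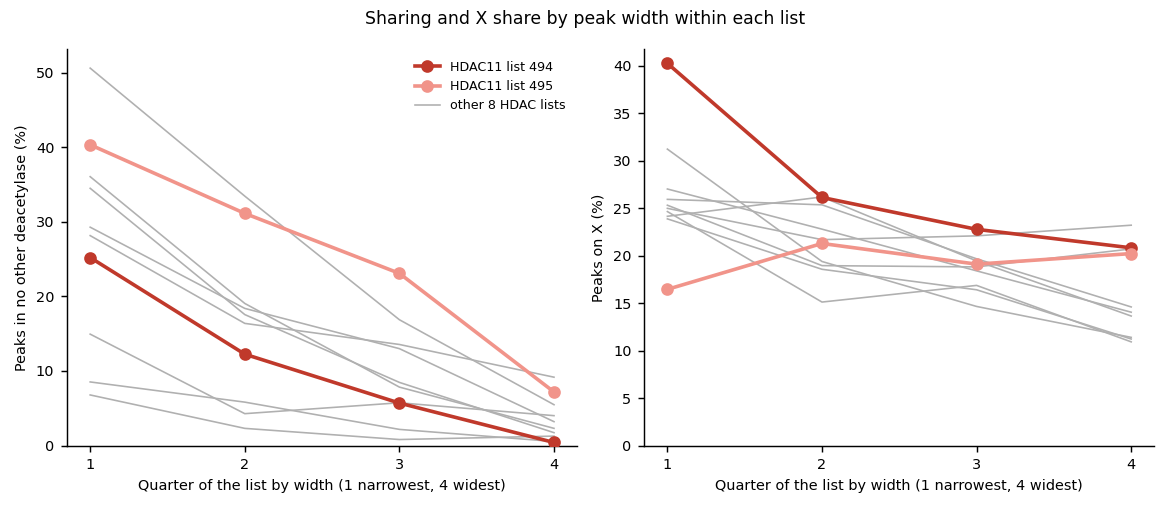
Each list was divided by width into 4 parts of equal number, from the narrowest (1) to the widest (4), and the percent of peaks in no other deacetylase (left) and on X (right) is plotted for list HDAC-494, list HDAC-495 and the other 8 lists in grey. List HDAC-494 has 40.2% of its narrowest peaks on X, above every other line, and list HDAC-495 has 16.4%, below every other line, while among the widest peaks 0.408% of list HDAC-494 and 7.18% of list HDAC-495 lie in no other deacetylase.

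Few HDAC11 peaks lay on chromosome 4, a small and largely heterochromatic chromosome. List HDAC-494 had 6 there (0.611%, interval 0.280% to 1.33%) and list HDAC-495 had 2 (0.133%, 0.0364% to 0.483%), against 0.370% to 1.96% of the peaks in the others and 1.00% of the bases. By bases 9.85 and 15.1 peaks would lie there. The value of list HDAC-495 was the lowest of the 10, that of list HDAC-494 lay above 3 lists (both of HDAC4a and HDAC6 list HDAC-497), and the difference of -0.633 points did not pass the test (two-sided exact permutation test, p = 0.16, adjusted p = 0.25). With the 982 widest peaks of every list the difference was 0.115 points. No region bound in both HDAC11 lists lay on chromosome 4, 0 of 186, which allows a share of up to 1.61% (3 regions of the 186) by counting error alone. On the large autosomal arms, list HDAC-494 had 18.7% of its peaks on 3R (16.4% to 21.3%), which holds 23.2% of the bases. List HDAC-495 had 21.2% on 2R (19.2% to 23.3%), which holds 17.6%.

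Most HDAC11 peaks overlapped a list of another deacetylase by at least 1 bp. In list HDAC-494, 107 of 982 (10.9%, interval 9.10% to 13.0%) met none of the 8 other lists, and in list HDAC-495, 383 of 1506 (25.4%, 23.3% to 27.7%). The share of peaks that met no list of another deacetylase was 13.0% over the peaks of the other 8 lists together and ran from 2.79% (HDAC6 list HDAC-497) to 26.6% (HDAC4a list HDAC-492). List HDAC-494 thus lay below that share and list HDAC-495 above it, and the mean difference of 4.97 points did not pass the test (two-sided exact permutation test, p = 0.51, adjusted p = 0.60). The 8 other lists together covered 30.5% of the arms and left 69.5% uncovered. When HDAC4a list HDAC-492 alone was left out, the unshared share of list HDAC-494 was 19.96%. With the 982 widest peaks of every list, the unshared share was 52.7% in list HDAC-494 and 50.4% in list HDAC-495, against 3.97% to 26.0% in the others (two-sided exact permutation p = 0.022, adjusted p = 0.052). That setting keeps every peak of list HDAC-494 but only the widest of the longer lists.

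At the other end, 198 peaks of list HDAC-494 (20.2%, interval 17.8% to 22.8%) and 204 of list HDAC-495 (13.5%, 11.9% to 15.4%) met all 4 other deacetylases. Over the other 8 lists the share was 10.5% and ran from 7.21% to 16.4%. The difference of 5.98 points did not pass the test (two-sided exact permutation test, p = 0.067, adjusted p = 0.16), and the 2 sides were not alike. For the other lists 1 of the 4 to be met is HDAC11, whose lists together cover 6.83% of the arms, whereas each deacetylase that HDAC11 had to meet covers 12.2% to 16.5%. When HDAC4a list HDAC-493 alone was left out, the share in all 4 was 12.8% in list HDAC-494 and 7.50% in list HDAC-495. The difference from the other lists was then 3.25 points. By midpoints lying inside the other peak it was 10.2% and 7.24%, against 3.92% to 8.51% in the others. That difference was 2.85 points (two-sided exact permutation test, p = 0.067, adjusted p = 0.16). With the 982 widest peaks of every list it was 6.11% and 6.01%, against 5.80% to 13.6% in the others, and the difference was -3.18 points. All 8 other lists were met by 65 peaks of list HDAC-494 (6.62%) and 62 of list HDAC-495 (4.12%). In the other lists, the share that met all 8 lists of different deacetylases ran from 0.604% (HDAC6 list HDAC-497) to 1.57% (HDAC3 list HDAC-499). The sides were again not alike, since the lists those had to meet include the short HDAC11 lists.

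**Figure D4:**
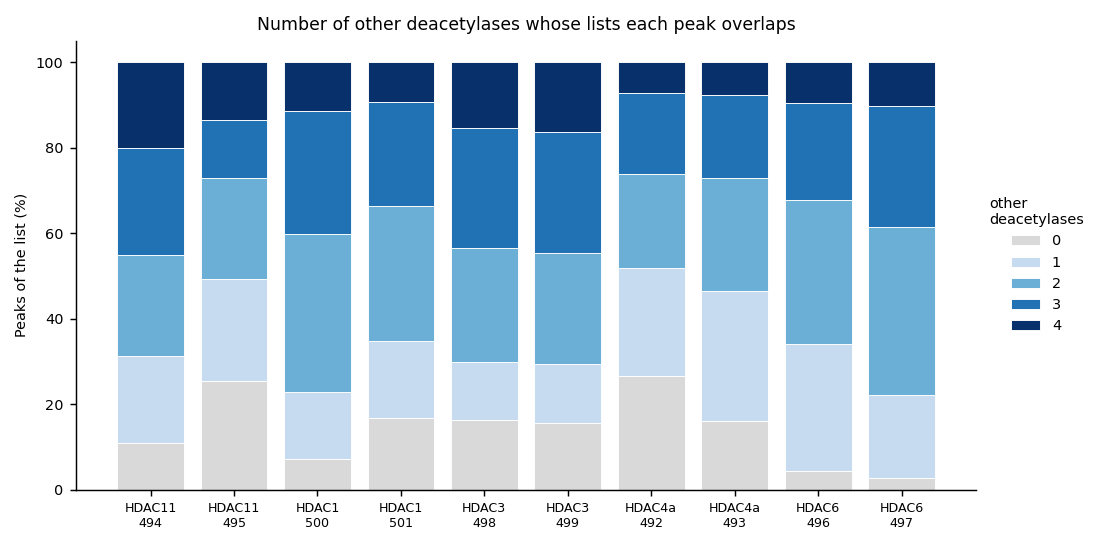
Bars give, for each of the 10 lists, the percent of peaks that overlap lists of 0 to 4 other deacetylases. List HDAC-494 has 10.9% at 0 and 20.2% at 4, and list HDAC-495 has 25.4% at 0 and 13.5% at 4.

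Sharing followed width within both HDAC11 lists. Among the narrowest 25%, 25.2% of the peaks of list HDAC-494 and 40.3% of those of list HDAC-495 met no other deacetylase, and among the widest 25%, 1 of 245 (0.408%) and 27 of 376 (7.18%). Peaks in all 4 others had a median width of 6235 bp in list HDAC-494 and 4268.5 bp in list HDAC-495, and unshared peaks 1986 bp and 1838 bp. A wide peak meets another list more easily by length alone, and the other 8 lists also had higher unshared shares among their narrowest 25% (6.78% to 50.6%) than among their widest (0.541% to 9.16%). Of the unshared peaks, 64.5% in list HDAC-494 and 64.0% in list HDAC-495 were within 5 kb of a peak of another deacetylase. The median distances of unshared peaks were 3326 and 2840 bp. The share of uncovered sequence that lies within 5 kb of such a peak was not measured, so these values do not show particular nearness.

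The 4 partners were met to different degrees, and the order was not the same in lists HDAC-494 and HDAC-495. HDAC4a, the class IIa enzyme, was met most often in both, by 696 peaks of list HDAC-494 (70.9%, interval 68.0% to 73.6%) and 880 of list HDAC-495 (58.4%, 55.9% to 60.9%), although its lists together cover the least of the 4, 12.2% of the arms. HDAC4a alone was also the most frequent combination with a single partner, with 125 peaks of list HDAC-494 and 224 of list HDAC-495. HDAC6 was met by 59.6% of list HDAC-494 and 45.2% of list HDAC-495 with a coverage of 14.1%, but HDAC6 alone by 14 and 22 peaks. Without the HDAC4a lists, the peaks meeting no other deacetylase would number 232 (23.6%) in list HDAC-494 and 607 (40.3%) in list HDAC-495.

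The class I enzymes divided the HDAC11 lists. HDAC1 was met by 609 peaks of list HDAC-494 (62.0%, interval 58.9% to 65.0%) and by 386 of list HDAC-495 (25.6%, 23.5% to 27.9%). In list HDAC-495 the base-pair ratio was 1.63 with HDAC1 list HDAC-500 and 1.15 with HDAC1 list HDAC-501, the lowest of all 45 pairs, and in list HDAC-494 it was 4.30 and 3.71. HDAC3 showed the opposite order. It was met by 302 peaks of list HDAC-494 (30.8%, 27.9% to 33.7%) and 553 of list HDAC-495 (36.7%, 34.3% to 39.2%), with ratios of 2.27 and 2.17 in list HDAC-494 and 2.96 and 2.80 in list HDAC-495. Peaks meeting HDAC3 alone numbered 10 in list HDAC-494 and 96 in list HDAC-495, and peaks meeting HDAC1 alone 51 and 18. The most frequent combination after all 4 was HDAC1, HDAC4a and HDAC6 without HDAC3 in list HDAC-494 (172 peaks, 17.5%), where list HDAC-495 had 56 (3.72%).

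Within HDAC4a the HDAC11 lists matched opposite lists, and within HDAC6 list HDAC-495 matched list HDAC-496 more than list HDAC-497. For list HDAC-494, 479 peaks (48.8%, interval 45.7% to 51.9%) met HDAC4a list HDAC-492 and 415 (42.3%, 39.2% to 45.4%) HDAC4a list HDAC-493, although list HDAC-492 covers less of the arms (4.87% against 8.76%). For list HDAC-495 the counts were 271 (interval 16.1% to 20.0%) and 796 (52.9%, 50.3% to 55.4%). HDAC6 list HDAC-496 was met by 36.6% of list HDAC-494 and 36.8% of list HDAC-495, whereas HDAC6 list HDAC-497, which covers 10.6% of the arms against 6.78%, was met by 49.2% and 23.6%. Relative to coverage, list HDAC-494 had base-pair ratios of 4.27 with list HDAC-496 and 4.37 with list HDAC-497, and list HDAC-495 had 5.15 and 2.19. Seen from the other side, 540 of the 2704 peaks of HDAC4a list HDAC-492 (20.0%) met list HDAC-494 and 820 of the 4003 of HDAC4a list HDAC-493 (20.5%) met list HDAC-495. Between 22.6% (HDAC1 list HDAC-501) and 29.4% (HDAC6 list HDAC-496) of each of the other 8 lists met at least 1 HDAC11 list.

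At a coarser scale the closest list stayed the same, but the order of the others did not. Over 123 bins of 1 Mb, the Spearman correlation of peak counts of list HDAC-494 was 0.53 with HDAC4a list HDAC-492 and also 0.53 with HDAC4a list HDAC-493. It was 0.50 with each HDAC6 list and lowest, at 0.33, with list HDAC-495. That of list HDAC-495 was 0.65 with HDAC4a list HDAC-493, 0.59 with HDAC6 list HDAC-496 and 0.51 with HDAC6 list HDAC-497. Its lowest values were 0.29 with HDAC4a list HDAC-492 and 0.19 with HDAC1 list HDAC-501. Bins share arm, gene density and the single input library, and these values are a description. The fullest bin held 23 peaks in list HDAC-494, on X between 17 and 18 Mb, and 35 in list HDAC-495, on 2R between 3 and 4 Mb.

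**Figure D5:**
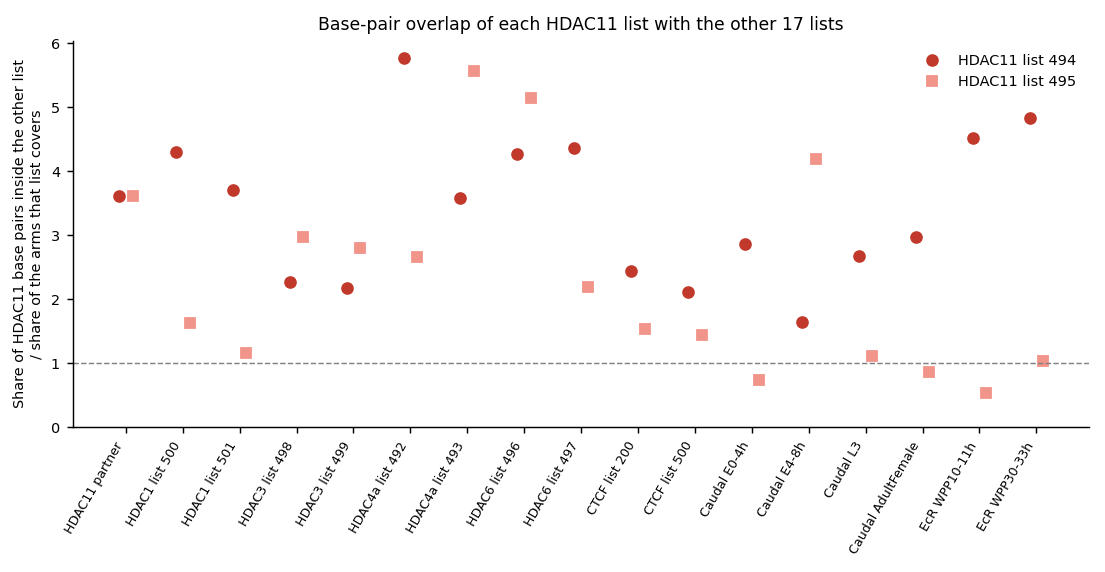
For lists HDAC-494 (circles) and HDAC-495 (squares), the share of HDAC11 base pairs inside each other list is divided by the share of the arms which that list covers, and the dashed line marks 1. List HDAC-494 is highest with HDAC4a list HDAC-492 (5.77) and high with EcR, list HDAC-495 is highest with HDAC4a list HDAC-493 (5.56) and high with Caudal at 4 to 8 h, and both give 3.61 with each other.

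Regions bound in both HDAC11 lists numbered 186, made of 188 peaks of list HDAC-494 (19.1%, interval 16.8% to 21.7%) and 198 of list HDAC-495 (13.1%, 11.5% to 14.9%). Between the lists of each other label these shares ran from 28.5% and 19.5% (HDAC4a) to 95.9% and 90.4% (HDAC3). The HDAC11 lists cover less of the arms, 3.60% and 3.71%. Relative to coverage the HDAC4a pair stood lower, with a base-pair ratio of 3.27 against 3.61 for the HDAC11 pair. Of the 186 regions, 157 (84.4%, 78.5% to 88.9%) also met HDAC4a, 128 (68.8%) HDAC6, 105 (56.5%) HDAC1 and 87 (46.8%) HDAC3. All 4 were met by 67 (36.0%, 29.5% to 43.1%) and all 8 other lists by 27 (14.5%, 10.2% to 20.3%), while 18 (9.68%, 6.21% to 14.8%) met none. Joint regions are longer than single peaks (median 4395 bp) and so meet other lists more easily. On X lay 38 of them (20.4%, 15.3% to 26.8%).

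The widest joint regions were those where other deacetylases also lay, and they are named by coordinates on release 5 of the genome, since no annotation of that release was used. The 3 highest by mean width rank lay at 2R 7902196 to 7920885 and 3R 1287183 to 1303953, each with peaks in all 8 other lists, and at 3R 7034306 to 7051320, with peaks in 7. The next, at 2R 19579534 to 19602239, met all 8, and that at 2R 11015011 to 11031405 met 5 lists of HDAC1, HDAC3 and HDAC6 but none of HDAC4a. The widest peak of list HDAC-494 measured 24669 bp at 2L 4441914 to 4466582 and met 7 other lists. The widest of list HDAC-495 measured 18933 bp at X 1751078 to 1770010 and met 8. All of the 5 widest peaks of list HDAC-494 were also met by list HDAC-495, whereas of the 5 widest of list HDAC-495 only the widest was met by list HDAC-494. The peak of rank 2 in list HDAC-495, at X 15608860 to 15625446, met all 4 other deacetylases but not list HDAC-494.

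Regions of HDAC11 that no other deacetylase list held were mostly narrow and, like HDAC11 peaks as a whole, mostly in 1 HDAC11 list. Of the 107 unshared peaks of list HDAC-494, 19 (17.8%, interval 11.7% to 26.1%) were found in list HDAC-495, and of the 383 of list HDAC-495, 23 (6.01%, 4.03% to 8.85%) in list HDAC-494. Over all peaks these shares were 19.1% of list HDAC-494 and 13.1% of list HDAC-495. The widest joint region of this kind lay at 3R 24730904 to 24739589, with widths of 4816 bp in list HDAC-494 and 8479 bp in list HDAC-495, and lay 6307 bp and 6514 bp from the nearest peak of another deacetylase. The next lay at 2R 3834673 to 3839162, 2R 20842382 to 20846824, 3L 12541680 to 12545886 and X 601533 to 605126. In list HDAC-494 the widest unshared peak, 5832 bp at 3R 19965029 to 19970860, lay 766 bp from another deacetylase and met no list of CTCF, Caudal or EcR. In list HDAC-495 the widest after the 3R region was 6183 bp at 2R 19892568 to 19898750. It was not in list HDAC-494, and of the 8 lists of other factors it met that of Caudal at 4 to 8 h alone.

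Lists of other factors separated the HDAC11 lists further. EcR, the ecdysone receptor, had base-pair ratios of 4.51 and 4.83 (labelled white prepupae 10 to 11 and 30 to 33 h) with list HDAC-494 and 0.530 and 1.03 with list HDAC-495. These lists are short, and that of 10 to 11 h was met by 57 peaks of list HDAC-494 and 12 of list HDAC-495. The other 8 deacetylase lists ran from 0.894 to 4.19 and from 0.772 to 4.26, so list HDAC-494 lay above both ranges, and list HDAC-495 lay below the first and inside the second. For Caudal, a homeodomain factor of posterior patterning, the ratios at 0 to 4 h were 2.86 with list HDAC-494 and 0.737 with list HDAC-495, against 0.880 to 4.02. At 4 to 8 h they were 1.63 and 4.19, against 0.844 to 3.54, so list HDAC-495 was the highest of the 10 there. The list of 0 to 4 h is labelled with an antibody against Caudal and that of 4 to 8 h with one against GFP. Stage, antibody and any difference in genotype therefore cannot be told apart in this contrast. With CTCF, an insulator protein, they were 2.44 and 1.53 (list 200) and 2.11 and 1.44 (list 500), against 2.54 to 4.84 and 1.90 to 4.87. Of the unshared HDAC11 peaks, 36 of 107 in list HDAC-494 (33.6%, interval 25.4% to 43.0%) and 180 of 383 in list HDAC-495 (47.0%, 42.1% to 52.0%) met a list of CTCF, Caudal or EcR. Among HDAC11 peaks shared with another deacetylase, which are wider, the shares were 72.5% of list HDAC-494 and 69.4% of list HDAC-495, and these 8 lists cover 19.7% of the arms. In no other list of the series lay 58 peaks of list HDAC-494 (5.91%, 4.60% to 7.56%) and 189 of list HDAC-495 (12.5%, 11.0% to 14.3%). The same share was not computed for the lists of the other deacetylases, so these counts do not show binding particular to HDAC11.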

How the data were processed

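The deposited lists hold a chromosome, start and end per peak (0-based, given here from 1) and no score or count for the deacetylases, so peaks were ranked by width. Per the labels' protocols, embryos were fixed in 1.8% formaldehyde. Reads were 36 bp per the series record, and coordinates are on BDGP release 5 per the submitters' processing notes. The aligner and peak caller were not given in the sources used here. Each deacetylase list joins 2 libraries made by the authors, per the labels.

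Arm lengths run from the lowest start to the highest end over all 18 lists (120102709 bp). Overlap means 1 bp or more. For each list, lists of its own label were left out when sharing was counted. Shares carry 95% Wilson intervals, which cover counting error only and treat peaks as independent. Lists, not peaks, were the unit of the two-sided exact permutation tests (2 of 10 lists, 45 choices, difference of means, log2 for counts, widths and spacing), with Benjamini-Hochberg adjustment over 7 measures. These tests treat lists as exchangeable although lists of 1 label and closely matching lists of different labels are related, and permuting the 5 labels could not give a p under 0.2. Nothing says that lists of 1 label came from separate collections, so spread may be technical. The members and measures were chosen with earlier results of these data known. Named regions are the 5 widest peaks per list, overall and unshared, the 5 widest joint regions of each kind, the 3 shortest runs of 5 peaks and the longest gap, and those leading each set are printed. Only enzyme names were taken from the gene table, which is of release 6. Functions were tested on simulated lists. Python 3.11.15, NumPy 2.4.6, SciPy 1.17.1 and Matplotlib 3.10.9 were used.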

Additional observations from a re-analysis of the deposited data

Results flagged for a closer look

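Peaks outside the 6 arms entered no comparison above. List HDAC-494 had 7 peaks on heterochromatic and unplaced sequences (0.708% of its 989 peaks) and list HDAC-495 had 7 (0.463% of 1513), more than the 3 that a count of 0 would allow. The other deacetylase lists had 8 to 33 such peaks, or 0.229% to 1.10%. In list HDAC-494 they lay on 2LHet (2), 2RHet (1), 3LHet (2), XHet (1) and Uextra (1), and in list HDAC-495 on 2LHet (1), 3RHet (1) and Uextra (5). Whether reads there map to a single place was not tested.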

How the results depend on the processing

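Each of the 7 differences was recomputed under the 13 to 20 of 23 alternatives that apply to it, 111 values in all. None passed 0.05 after adjustment, and 103 kept their direction. The smallest exact p passes after adjustment only if several measures come near it together, so the former says little about likeness. Of the 23 alternatives, 19 were planned, while leaving out both lists of a deacetylase and the other settings for pairs of lists were chosen after seeing the data. With the 982 widest peaks of every list, the chromosome 4 difference was 0.115 points and that of the share in all 4 others -3.18 points. Without the HDAC6 lists the unshared difference was -4.41 points. Leaving out 1 list at a time gave log2 differences of -1.67 to -1.05 for peak number, -0.31 to 0.11 for width (above 0 without HDAC11 list HDAC-495 or either HDAC3 list) and 0.26 to 0.36 for spacing. In percentage points it gave -0.776 to 7.46 for X (below 0 without HDAC11 list HDAC-494), -0.872 to -0.394 for chromosome 4, -3.57 to 11.3 for the unshared share (below 0 without HDAC11 list HDAC-495) and 3.25 to 14.2 for all 4 others. With 1 HDAC11 list left, the exact test cannot give less than 0.11. List HDAC-494 met list HDAC-495 at 14.0% of its peaks by midpoints and 14.9% with equal numbers, and list HDAC-495 met list HDAC-494 at 15.3% with equal numbers. The causes were not tested. No paired analysis was possible because the numbered libraries were joined within each list and no list number is shared between deacetylases.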

Other observations

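Peaks that met no other deacetylase overlapped the list of Caudal at 4 to 8 h, made with an antibody against GFP and covering 9.18% of the arms, to very different degrees from list to list. The share was 13.1% of 107 such peaks in HDAC11 list HDAC-494 (interval 7.96% to 20.8%) and 36.8% of 383 in HDAC11 list HDAC-495 (32.1% to 41.8%). It was 40.9% and 40.3% in the HDAC3 lists HDAC-498 and HDAC-499, 38.2% in HDAC4a list HDAC-493 and 36.5% in HDAC6 list HDAC-496. In the remaining lists it was 9.28% in HDAC6 list HDAC-497, 8.76% in HDAC4a list HDAC-492, 6.91% in HDAC1 list HDAC-500 and 5.51% in HDAC1 list HDAC-501. No value lay between 13.1% and 36.5%, and the values of HDAC11, HDAC4a and HDAC6 stood on either side of this gap within a label. Over all peaks, 26.1% of HDAC11 list HDAC-494 and 48.5% of HDAC11 list HDAC-495 overlapped this list, so the difference between them was not confined to unshared peaks. The same held within HDAC4a, with 17.9% of all peaks in list HDAC-492 and 38.3% in list HDAC-493. In HDAC6 list HDAC-496 the share over all peaks was 35.8%, close to that of its unshared peaks. The order was seen in the data and was not tested.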
